A study of Arabidopsis thaliana with 14 samples.

Results

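The dirigent genes of Arabidopsis thaliana were followed across 14 ATH1 arrays, with AT4G11190 at the centre. The list holds 10 dirigent loci given by locus code, and a gene entered the analysis where a probe set is annotated to it alone. This was the case for 5 of the 10, AT4G11190, AT4G13580, AT4G11210, AT1G58170 and AT1G55210, among 13513 probe sets annotated to a single gene. AT4G11180 (DP1), AT1G64160 (DIR5), AT4G23690 (DIR6), AT2G28670 (ESB1) and AT3G24020 had no such probe set and were not analysed here. AT4G11190 was chosen by its level on the Col-0 6 h NAA arrays, where it is close to the bottom of the scale, so its values on those arrays are a description with no test. For reading the rest of the family, 15 other dirigent loci were added, of which 10 had a probe set of their own.

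Dirigent proteins are secreted proteins of the cell wall that have no known oxidising activity of their own. They guide how radicals of monolignols, the phenolic building blocks of lignin, couple to each other, and so set the handedness of lignans such as pinoresinol. DIR5 and DIR6 are the members known for pinoresinol formation in Arabidopsis, and ESB1 is needed for an orderly Casparian strip, the lignin band of the root endodermis. The annotation used here gives no gene name to any of the 5 measured loci.

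Both the mutant slr-1 and the wild type Col-0 were sampled before transfer (0 h) and 2 h and 6 h after transfer to NAA at 10 µM, and Col-0 roots given a mock treatment for 6 h formed the 7th group, with 2 arrays in each. The slr-1 plants carry a dominant mutation that stabilises the Aux/IAA repressor IAA14 and form no lateral roots. NAA is a synthetic auxin. All seedlings, Col-0 mock and 0 h included, had germinated on 10 µM NPA, which blocks auxin transport, and were 3 days old. Each RNA sample came from root pieces cut between the meristem and the hypocotyl of some 1500 seedlings, so each array averages many roots and cell types. Mock-treated slr-1 and a mock treatment of 2 h were not analysed here, and there the effects of NAA and of time since transfer cannot be told apart. The free-text description of both mock samples speaks of another organism's tissue, whereas their titles and protocols name the root treatment, and they were used as Col-0 mock.

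The median signal of the arrays lay between 357 and 397, and the correlation of replicates over probe sets, which are not independent, between 0.92 and 0.95. One array, slr-1 6 h NAA replicate 2, had a highest signal of 29349.7, against 58837.1 to 124830.4 on the others. On slr-1 0 h replicate 2 the GAPDH probe sets gave a 3' to 5' ratio of 1.16, against 0.546 to 0.742 on the others. As a check of the NAA treatment, LBD16, an auxin-induced regulator of lateral root founding, rose by 1.08 on the log2 scale at 2 h in slr-1, and by 3.22 at 2 h and 3.66 at 6 h in Col-0. In slr-1 at 6 h its change was 0.42 (adjusted p = 0.126), which was not called. The lateral root regulators LBD29 and PUCHI were measured too. LBD29 was called higher at 2 h and 6 h in both genotypes, with slr-1 means of 318 at 0 h, 3035 at 2 h and 2258 at 6 h. PUCHI was called higher at both times in Col-0 and at neither in slr-1, with slr-1 means of 172, 251 and 274. None of 6 endodermis, 5 xylem, 2 phloem, 2 stele, 3 root cap and meristem and 4 green tissue markers had a probe set of its own, so the tissue label could not be checked through them. Of 4 root hair markers, 1 was measured, EXPA7, an expansin of root hairs. Signals are the deposited MAS5 intensities, and changes are log2 differences after 18.9 was added to every signal. A change was called where limma's adjusted p over 14882 tested probe sets was under 0.05.

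AT4G11190 had signals near the bottom of the scale on the Col-0 6 h NAA arrays and was highest on the mock arrays taken at the same time. In slr-1 its signals were 346.9 and 788.6 at 0 h, 266.9 and 363.5 at 2 h, and 220.3 and 293.9 at 6 h. Col-0 had 656.1 and 695.6 at 0 h, 595.2 and 1336.1 at 2 h, and 16.9 and 18.6 at 6 h of NAA, against 3687.0 and 4549.0 after 6 h of mock treatment. The Col-0 6 h NAA arrays thus lay below every other array and the mock arrays above every other array, with no overlap on either side. In bulk RNA, fewer cells of a type and less RNA per cell cannot be told apart, for this gene as for all that follow. The groups between them overlapped with their neighbours in the order, which ran upward as slr-1 6 h, slr-1 2 h, slr-1 0 h, Col-0 0 h and Col-0 2 h. On its own array the gene's signal exceeded 8.995% and 9.698% of all probe sets after 6 h of NAA in Col-0, and 91.9% and 93.7% of them after mock treatment.

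**Figure D1:**
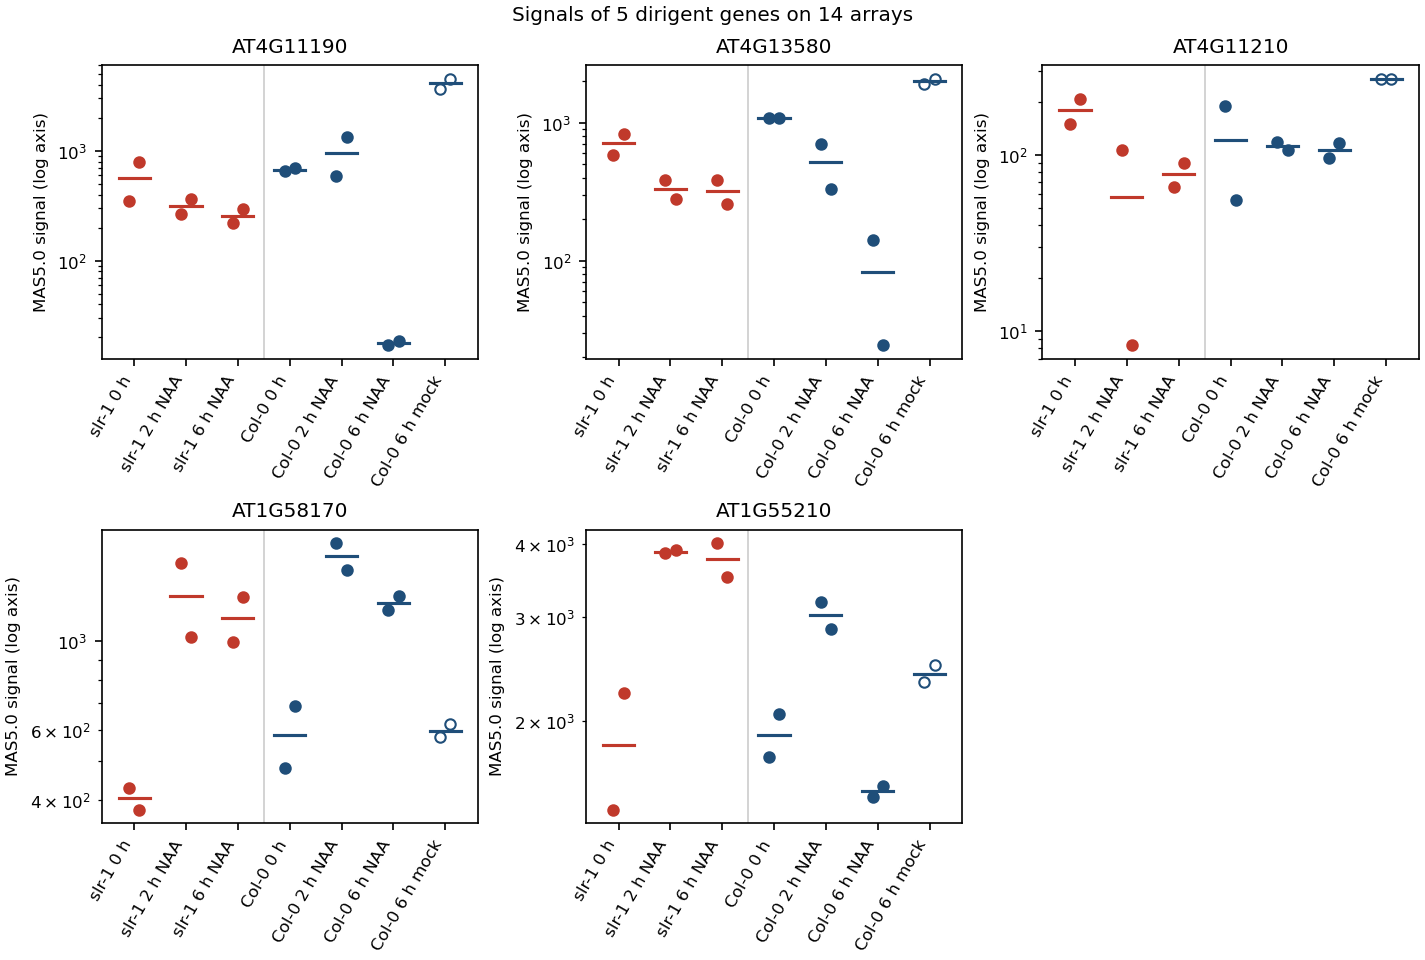
Deposited signal (log axis) of the 5 measured dirigent genes of the list on each array, with 1 panel per gene, slr-1 groups left of Col-0 groups, points for the 2 arrays and a line for the group mean. AT4G11190 reads 16.9 and 18.6 on the Col-0 6 h NAA arrays, and AT4G13580 is lowest on the same arrays at 140.6 and 24.4.

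As a description, AT4G11190 differed in Col-0 at 6 h of NAA by -4.24 on the log2 scale against 0 h, and by -6.81 against mock roots. Both values rest on signals below the 18.9 that was added, and a different added value moves them. With 1 added the differences were -5.17 and -7.77, and with 50 added they were -3.42 and -5.94. Mock roots were 5.93-fold higher than 0 h roots, a difference of 2.57, with means of 4118 ± 609.5 at 6 h of mock and 676 ± 27.9 at 0 h (SD, n = 2 each). At 2 h of NAA the gene had changed by 0.39 against 0 h (SE 0.38, adjusted p = 0.533), and the 6 h arrays differed from the 2 h arrays by -4.64.

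In the main fit, AT4G11190 did not pass the threshold in slr-1 at either time. The change against 0 h was -0.72 at 2 h (SE 0.38, adjusted p = 0.248) and -0.99 at 6 h (adjusted p = 0.0999), and between 2 h and 6 h it was -0.27 (adjusted p = 0.785). Both of the changes against 0 h, and whether they pass the threshold, depend on which slr-1 0 h array is kept. Without replicate 1, the lower of the 2 arrays, they were -1.29 and -1.56. The baseline is then replicate 2 alone, the array with the GAPDH 3' to 5' ratio of 1.16. Over single omitted arrays the changes ran from -1.29 to -0.15 at 2 h and from -1.56 to -0.42 at 6 h. Before auxin slr-1 and Col-0 differed by -0.35 (adjusted p = 0.584), and the response at 2 h, slr-1 minus Col-0, differed by -1.11 (SE 0.53, adjusted p = 0.313). The difference of response at 6 h was 3.25, as a description. After 6 h of NAA the gene averaged 257 ± 52.0 in slr-1 and 17.75 ± 1.2 in Col-0 (SD, n = 2 each).

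Under NAA, AT4G13580 had fallen at 6 h in Col-0 and was lowest on the same 2 arrays as AT4G11190. In slr-1 it had signals of 587.7 and 826.0 at 0 h, 384.9 and 279.7 at 2 h, and 382.8 and 255.8 at 6 h. In Col-0 it had 1075.4 and 1088.9 at 0 h, 701.8 and 329.3 at 2 h, and 140.6 and 24.4 at 6 h of NAA, against 1898.0 and 2082.2 in mock roots. The Col-0 6 h NAA arrays lay below those of every other group, although the ratio between them was the widest of the 7 groups, and the mock arrays lay above all others.

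In slr-1 AT4G13580 changed by -1.04 at 2 h (adjusted p = 0.178) and by -1.11 at 6 h (adjusted p = 0.142), and the 6 h value passed without either Col-0 6 h NAA array (adjusted p = 0.039 and 0.0374) and with the compared groups alone (adjusted p = 0.0433). Its fall in Col-0 was -3.73 at 6 h against 0 h (SE 0.48, limma adjusted p = 2.17e-05) and -4.59 against mock (adjusted p = 3.96e-06). Between 2 h and 6 h the change was -2.59 (adjusted p = 9.99e-04), which was -1.65 without Col-0 6 h NAA replicate 2, the array at 24.4, and -3.53 without replicate 1. The same omissions gave -2.79 and -4.67 against 0 h and -3.65 and -5.53 against mock. The change by 2 h was -1.14 (adjusted p = 0.122), which passed the threshold without either Col-0 6 h NAA array (adjusted p = 0.0291 and 0.0278) and in a fit of the compared groups alone (adjusted p = 0.0399). The response at 6 h differed between the genotypes by 2.62, slr-1 minus Col-0 (SE 0.67, adjusted p = 0.0108), and at 2 h by 0.09 (SE 0.67, adjusted p = 0.967). Without single arrays the 6 h difference ran from 1.68 to 3.56. Mock treatment moved the gene by 0.87 against 0 h (adjusted p = 0.351).

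AT2G39430, one of the added dirigent genes, was also lower in Col-0 after NAA for 6 h. The slr-1 arrays read 467.3 and 446.3 at 0 h, 481.1 and 273.0 at 2 h, and 286.6 and 148.1 at 6 h. The Col-0 arrays read 877.8 and 647.5 at 0 h, 457.5 and 307.2 at 2 h, and 153.4 and 111.1 at 6 h of NAA, against 1151.5 and 885.1 in mock roots. The 6 h NAA arrays of the genotypes overlapped. In slr-1 the 6 h change was -1.07 (adjusted p = 0.0495), a call that was lost without any one of 11 of the 14 arrays (adjusted p 0.0541 to 0.327), with 1 added to the signals (0.052), without the filter (0.0848) and in a fit of the compared groups alone (0.0925). In Col-0 at 6 h it fell by 2.37 against 0 h (SE 0.34, adjusted p = 5.87e-05) and fell by 2.78 against mock (adjusted p = 1.64e-05). The step between 2 h and 6 h was -1.40 (adjusted p = 0.00614) and lost its call without Col-0 2 h replicate 1 (-1.12, adjusted p = 0.072) or Col-0 6 h NAA replicate 2 (-1.19, adjusted p = 0.0531). The difference of response at 6 h was 1.29 (SE 0.48, adjusted p = 0.0596).

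The root hair gene EXPA7 was also lower on the Col-0 6 h NAA arrays than on the mock arrays, with signals of 214.9 and 54.5 after NAA, against 547.3 and 502.0 after mock treatment. EXPA7 passed the filter on low signals only through the mock arrays, so the difference of -2.05 is a description, with no test. Over the slr-1 arrays EXPA7 read 77.7 and 40.2 at 0 h, 90.1 and 26.2 at 2 h, and 96.5 and 50.4 at 6 h. Its part in the results on AT4G11190, AT4G13580 and AT2G39430 was not tested.

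AT1G58170 rose under NAA in both genotypes. In slr-1 its signals were 428.5 and 377.5 at 0 h, 1574.9 and 1023.4 at 2 h, and 997.4 and 1290.9 at 6 h. In Col-0 they were 479.6 and 687.0 at 0 h, 1767.1 and 1506.3 at 2 h, and 1201.6 and 1300.1 at 6 h, against 574.9 and 618.7 in mock roots. All 8 NAA arrays lay above all 6 arrays without NAA. The rise in slr-1 was 1.61 at 2 h (SE 0.22, adjusted p = 3.71e-04) and 1.45 at 6 h (adjusted p = 9.6e-04). In Col-0 it was 1.48 at 2 h (adjusted p = 4.61e-04), 1.10 at 6 h (adjusted p = 0.00112) and 1.04 at 6 h against mock (adjusted p = 0.00178). The genotypes' responses differed by 0.14 at 2 h (SE 0.32, adjusted p = 0.882) and by 0.36 at 6 h (adjusted p = 0.436), which were not called. Mock roots and 0 h roots differed by 0.05 (adjusted p = 0.93).

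Among the added genes, AT3G13650 also rose in both genotypes. In slr-1 it had signals of 564.7 and 790.4 at 0 h, 3730.8 and 3229.5 at 2 h, and 2996.4 and 2572.1 at 6 h. In Col-0 it had 746.2 and 840.3 at 0 h, 3825.4 and 3984.4 at 2 h, and 3601.6 and 3694.2 at 6 h, against 1196.9 and 1631.5 in mock roots. Every NAA array lay above every array without NAA. The rise was 2.34 at 2 h and 2.02 at 6 h in slr-1 (SE 0.18, adjusted p = 5.09e-06 and 2.65e-05), and 2.27 at 2 h and 2.18 at 6 h in Col-0 (adjusted p = 1.79e-06 and 4.45e-07). Against mock the 6 h rise in Col-0 was 1.37 (adjusted p = 3.54e-05). Mock treatment itself was higher than 0 h by 0.81 (adjusted p = 0.0216), a call lost without Col-0 0 h replicate 1 (adjusted p = 0.118), Col-0 0 h replicate 2 (adjusted p = 0.0752) or mock replicate 2 (adjusted p = 0.144), and when only the compared groups were fitted (adjusted p = 0.0713). The responses of the genotypes differed by 0.07 at 2 h (adjusted p = 0.935) and -0.15 at 6 h (adjusted p = 0.699).

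**Figure D2:**
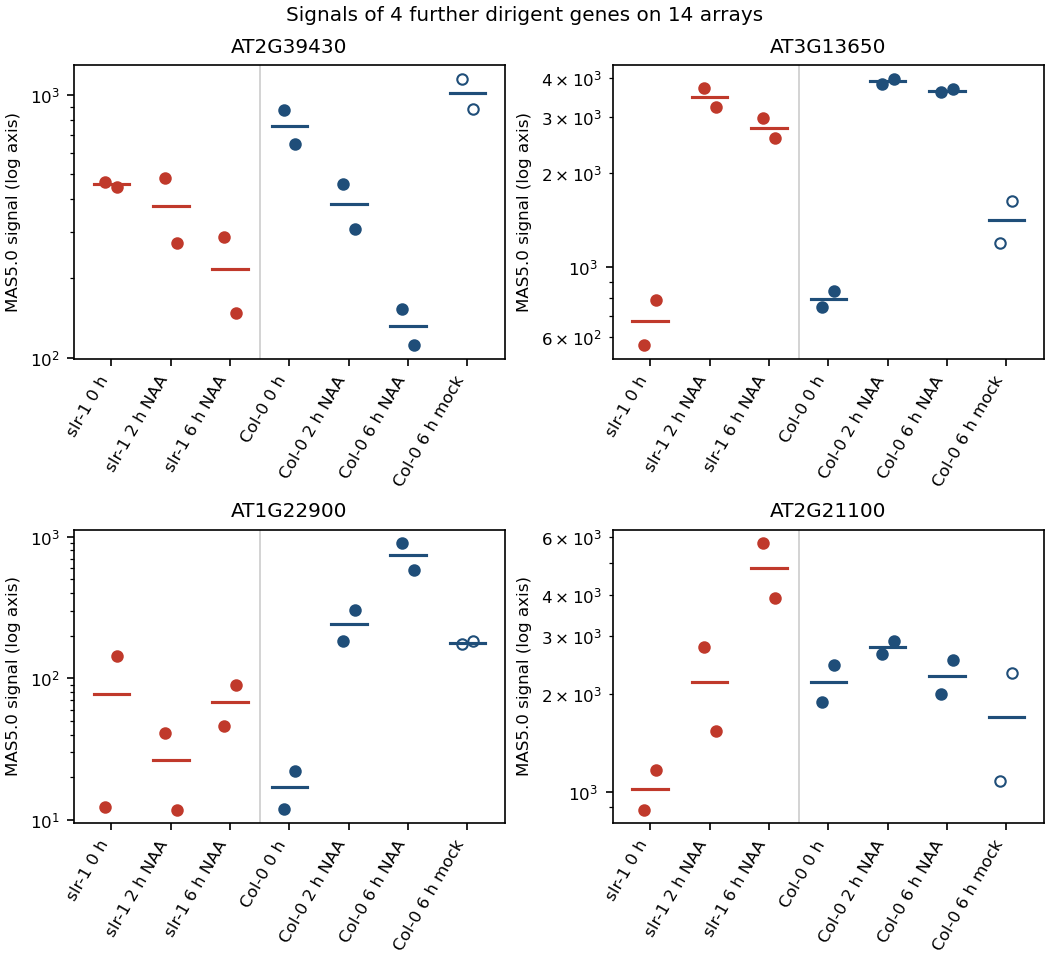
Deposited signal (log axis) of 4 added dirigent genes on each array, drawn as for the genes of the list, with slr-1 groups left of Col-0 groups. AT3G13650 is at 2572.1 or more on every NAA array, AT2G39430 is lowest in Col-0 at 6 h of NAA, AT1G22900 is highest in Col-0 at 6 h of NAA and AT2G21100 rises in slr-1.

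AT1G55210 rose in slr-1 at 2 h and at 6 h of NAA, whereas in Col-0 it rose at 2 h and was lower again at 6 h. Signals in slr-1 were 1413.9 and 2235.8 at 0 h, 3857.0 and 3906.3 at 2 h, and 4015.5 and 3517.3 at 6 h. Col-0 had 1735.3 and 2057.9 at 0 h, 3187.7 and 2866.7 at 2 h, and 1488.8 and 1550.9 at 6 h, against 2329.7 and 2485.6 in mock roots. Thus the Col-0 6 h NAA arrays lay below the mock and the Col-0 0 h arrays, and at 6 h of NAA both slr-1 arrays lay above both Col-0 arrays.

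The rise of AT1G55210 in slr-1 was 1.12 at 2 h (SE 0.18, adjusted p = 0.00121) and 1.07 at 6 h (adjusted p = 0.00177), with -0.05 between those times (adjusted p = 0.938). In Col-0 it rose by 0.67 at 2 h (adjusted p = 0.0208), a call lost without Col-0 0 h replicate 1 (0.55, adjusted p = 0.144), Col-0 2 h replicate 1 (0.60, adjusted p = 0.139) or Col-0 2 h replicate 2 (0.75, adjusted p = 0.0589). It fell by 0.98 between 2 h and 6 h (adjusted p = 0.00106), and at 6 h it differed from 0 h by -0.31 (adjusted p = 0.176). Against mock the 6 h change was -0.66 (adjusted p = 0.00936), a call lost when mock replicate 2 (adjusted p = 0.0547) or replicate 1 of the NAA arrays (adjusted p = 0.0558) was left out. The response at 6 h differed by 1.38, slr-1 minus Col-0 (SE 0.26, adjusted p = 0.00149, 1.06 to 1.71 without single arrays), and at 2 h by 0.45 (SE 0.26, adjusted p = 0.416). Before auxin the genotypes differed by -0.09 (adjusted p = 0.797).

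AT2G21100, an added gene, was also higher in slr-1 at 6 h. Its signals in slr-1 were 885.1 and 1167.4 at 0 h, 2787.4 and 1541.9 at 2 h, and 5775.5 and 3918.4 at 6 h. In Col-0 they were 1892.0 and 2449.1 at 0 h, 2651.0 and 2892.3 at 2 h, and 1992.6 and 2529.0 at 6 h, against 1084.8 and 2320.3 in mock roots. It rose in slr-1 by 2.21 at 6 h (SE 0.33, adjusted p = 8.21e-04), while in Col-0 the 6 h change was 0.06 (adjusted p = 0.897), and the responses differed by 2.15 (SE 0.47, adjusted p = 0.00413). At 0 h slr-1 was lower than Col-0, with a difference of -1.07 (adjusted p = 0.0483), a call lost without any one of 10 of the 14 arrays (adjusted p 0.054 to 0.24) and under quantile normalization (adjusted p = 0.052).

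**Figure D3:**
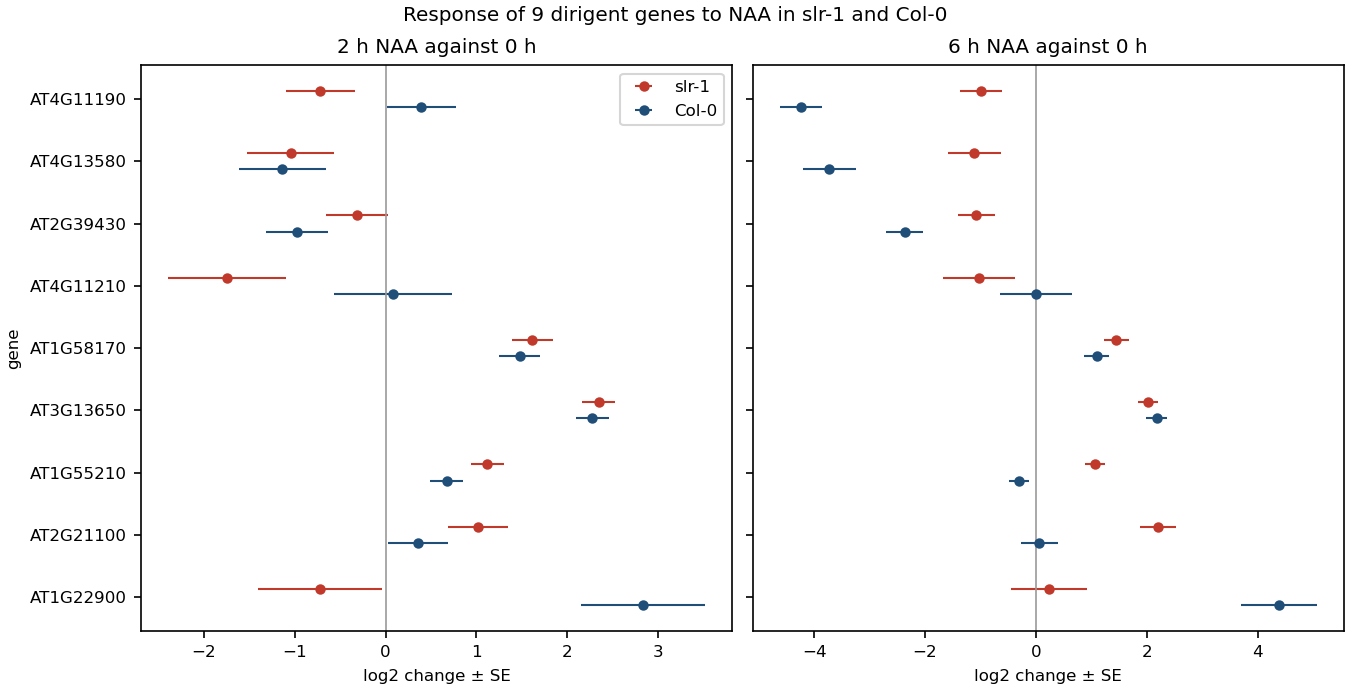
Change under NAA against 0 h, on the log2 scale with its standard error, in slr-1 and in Col-0 at 2 h and 6 h for the tested dirigent genes. AT1G58170 and AT3G13650 are higher under NAA in both genotypes, while AT1G55210 and AT2G21100 are higher in slr-1 at 6 h. AT4G13580 reads lower under NAA in both genotypes, furthest in Col-0 at 6 h, and is called only there.

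AT1G22900, an added gene, was higher in Col-0 at 2 h of NAA than at 0 h and had its highest signals there at 6 h. It passed the filter on low signals only through the Col-0 6 h NAA arrays, so comparisons that use them are a description, with no test. In slr-1 its signals were 12.3 and 143.0 at 0 h, 41.3 and 11.8 at 2 h, and 46.2 and 89.7 at 6 h. In Col-0 they were 12.0 and 22.1 at 0 h, 182.2 and 301.1 at 2 h, and 903.5 and 583.6 at 6 h, against 173.6 and 181.8 in mock roots. Mock roots also lay above 0 h roots, with log2 group means of 7.62 and 5.15, against 7.99 at 2 h of NAA. The mock difference was not called, though its unadjusted limma p was under 0.05. Without a mock treatment of 2 h, NAA and transfer cannot be told apart at that time. Signals near 18.9 limit the size of the gene's changes. In slr-1 they were -0.73 at 2 h (adjusted p = 0.55) and 0.24 at 6 h (adjusted p = 0.856), and in Col-0 the change was 2.83 at 2 h (SE 0.68, adjusted p = 0.0109). The Col-0 2 h call was lost without Col-0 0 h replicate 1 (adjusted p = 0.0657) or Col-0 2 h replicate 2 (adjusted p = 0.0942). The responses at 2 h differed by -3.56, slr-1 minus Col-0 (SE 0.97, adjusted p = 0.0643). As a description, the 6 h level in Col-0 differed from 0 h by 4.39 and from mock by 1.92, and the responses at 6 h differed by -4.15.

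AT4G11210, which lies close to AT4G11190 in the order of loci, was dim throughout. It passed the filter on low signals only through the mock arrays, so comparisons with them are a description, and it was not called in any of the others. Its signals were 150.9 and 208.0 in slr-1 at 0 h, 107.5 and 8.3 at 2 h, and 65.5 and 89.8 at 6 h. Col-0 had 189.7 and 55.5 at 0 h, 119.4 and 106.7 at 2 h, and 96.6 and 117.1 at 6 h of NAA, against 269.4 and 271.9 in mock roots. Its 6 h NAA level in Col-0 differed from mock by -1.21, as a description, and from 0 h by 0.01 (SE 0.65). In slr-1 the 2 h change of -1.74 (adjusted p = 0.1) passed without slr-1 2 h replicate 1 (-2.85, adjusted p = 0.0189).

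Neighbouring loci with a probe set did not show the range of AT4G11190, which was itself chosen by its low level on the Col-0 6 h NAA arrays. In locus order, AT4G11180 and the pseudogene AT4G11200 flank it, followed by AT4G11210. Of the 11 loci of AT4G11170 to AT4G11220, 4 had a probe set, AT4G11190 among them, and AT4G11180 had none. AT4G11200 read 11.1 to 104.1 over the 14 arrays and was not tested. AT4G11175 read 147.1 to 443.6 and was not called in any comparison. Whether a probe set also binds RNA of a near-identical family member was not tested, and no sequences were used here.

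The other 6 added dirigent genes with a probe set did not pass the filter on low signals. They ranged over the arrays from 18.5 to 183.2 for AT2G21110, 12.9 to 153.5 for AT3G13662, 12.6 to 180.6 for AT4G38700, 34.4 to 218.1 for AT3G58090, 19.1 to 194.0 for AT1G65870 and 48.6 to 242.5 for AT3G13660. All 5 genes of the list passed it, together with 4 of the 10 added ones, which gave 9 tested dirigent genes.

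Counted over the genes of the list, AT1G58170 and AT1G55210 were called higher in Col-0 at 2 h, 2 of 5, where 9.75% of all probe sets were called higher and 7.85% lower. In Col-0 at 6 h against 0 h, 1 of 4 was higher and 1 lower, where 22.3% of all probe sets were called higher and 26.3% lower. AT4G11190 is left out of the counts that use the Col-0 6 h NAA or mock arrays, and AT4G11210 of those that use the mock arrays. Against mock, 1 of 3 was higher and 2 lower, where 20.6% were called higher and 24.8% lower. Mock against 0 h had 0 of 3 called, with 2.98% of all probe sets higher and 2.1% lower. At an unadjusted p under 0.05 the limma count was 0 of 3 as well.

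When the 6 h NAA arrays of Col-0 were set against its 2 h arrays, AT4G13580 and AT1G55210 were lower and none of the 4 was higher, where 15.5% of all probe sets were called higher and 17.6% lower. In slr-1, AT1G58170 and AT1G55210 were higher at 2 h, 2 of 5, where 6.86% were higher and 5.45% lower, and AT1G58170 and AT1G55210 were again higher at 6 h, 2 of 5, where 7.96% were higher and 6.26% lower. Between 2 h and 6 h in slr-1, 0 of 5 was called, with 0.464% of all probe sets higher and 0.753% lower. For slr-1 against Col-0 at 0 h, 0 of 5 was called, with 6.63% higher and 6.77% lower. At an unadjusted p under 0.05 the limma count was 1 of 5 there, AT1G58170, and 0 of 5 between 2 h and 6 h in slr-1. The difference of response at 2 h had 0 of 5 called, also at an unadjusted p under 0.05, where 1.18% were higher and 2% lower in slr-1, and at 6 h it had 2 of 4 higher, AT1G55210 and AT4G13580, where 14.9% were higher and 12.6% lower.

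Over all 9 tested dirigent genes the directions were mixed. In slr-1 at 2 h, 3 of 9 were higher and 0 lower, beside 6.86% and 5.45% of all probe sets. In slr-1 at 6 h, 4 of 9 were higher and 1 lower, beside 7.96% and 6.26%, with a median change of 0.24 beside 0.02 over all probe sets tested. In Col-0 at 2 h, 4 of 9 were higher and 0 lower, beside 9.75% and 7.85%. Comparisons with the Col-0 6 h NAA arrays leave out AT4G11190 and AT1G22900, and those with the mock arrays AT4G11190 and AT4G11210. In Col-0 at 6 h against 0 h, 2 of 7 were then higher and 2 lower, beside 22.3% and 26.3%, with a median of 0.0087 beside -0.11. At 6 h against mock, 2 of 6 were higher and 3 lower, beside 20.6% and 24.8%, with a median of -0.08 beside -0.09. The difference of response at 6 h was higher in slr-1 for 3 of 7 and lower for 0, beside 14.9% and 12.6%, with a median of 1.29 beside 0.10. The counts come from few genes, and the genes were chosen with earlier results known.

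**Figure D4:**
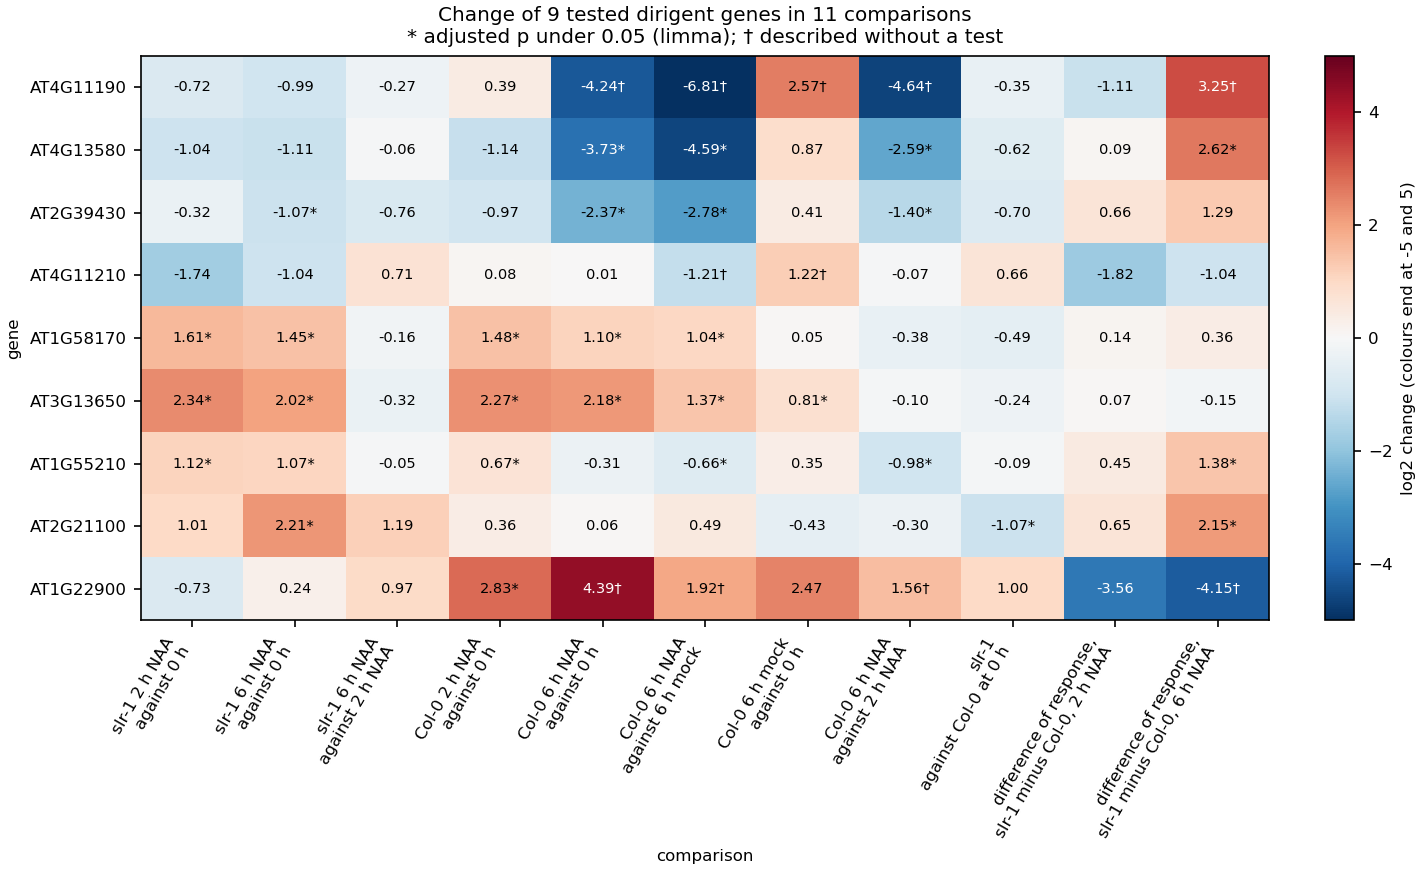
Log2 change of the 9 tested dirigent genes in the 11 comparisons, with slr-1 comparisons left of Col-0 comparisons, asterisks for called changes and daggers for values of AT4G11190, AT4G11210 and AT1G22900 that are a description. AT1G58170 and AT3G13650 are higher under NAA in both genotypes, while AT4G13580 and AT2G39430 are lower in Col-0 at 6 h. Both also read lower in slr-1 at 6 h, where AT2G39430 has a call that most single omissions lost and AT4G13580 has none.

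Few genes of the pathways around dirigent proteins could be read. Of 16 Casparian strip genes 3 had a probe set, of 19 monolignol synthesis genes 2, of 17 laccases 1, of 2 lignan reductases 0 and of 9 suberin genes 0. In slr-1 at 6 h against 0 h, 0 of the 3 measured Casparian strip genes were higher and 1 lower, beside 7.96% and 6.26% of all probe sets. The lower one was AT1G61590, at -1.13 (adjusted p = 0.00349). In Col-0 at 6 h against 0 h, all 3 were lower, beside 26.3% of all probe sets, with a median of -1.07 beside -0.11. Against mock, 2 of the 3 were lower, beside 24.8% of all probe sets, with a median of -0.96 beside -0.09. GSO1 (AT4G20140), a receptor kinase that keeps the Casparian strip continuous, fell by 1.20 at 2 h (adjusted p = 3.51e-04) and fell by 1.07 at 6 h (adjusted p = 1.97e-04) in Col-0, with -0.96 at 6 h against mock (adjusted p = 5.11e-04). AT4G34600 fell by 1.66 at 6 h against 0 h (SE 0.19, adjusted p = 8.33e-06), with -1.91 against mock (adjusted p = 2.88e-06). AT1G61590 fell by 0.90 against 0 h (adjusted p = 0.00325), while its difference from mock was -0.50 (adjusted p = 0.0681). The responses at 6 h differed for GSO1 by 1.18 (adjusted p = 0.00336) and for AT4G34600 by 1.27 (adjusted p = 0.00358), slr-1 minus Col-0.

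The 2 monolignol genes were higher in slr-1 at 2 h, beside 6.86% of all probe sets, and lower in Col-0 at 6 h, beside 26.3%, each against 0 h. HCT (AT5G48930), an acyltransferase of the pathway, rose by 0.92 in slr-1 at 2 h (adjusted p = 0.00166) and fell by 0.70 in Col-0 at 6 h (adjusted p = 0.00202). Against mock the HCT change was -0.58 (adjusted p = 0.00821), a call lost without NAA replicate 1 (adjusted p = 0.085) or mock replicate 2 (adjusted p = 0.0768). CCR2 (AT1G80820), a cinnamoyl-CoA reductase, rose in slr-1 by 1.71 at 2 h (adjusted p = 1.86e-04) and by 1.54 at 6 h (adjusted p = 5.39e-04), and fell by 1.33 in Col-0 at 6 h (adjusted p = 1.8e-04). Against mock the CCR2 change was -0.59 (adjusted p = 0.038), a call lost without NAA replicate 1 (adjusted p = 0.262) or mock replicate 2 (adjusted p = 0.22), without the filter (adjusted p = 0.0548) and with the compared groups alone (adjusted p = 0.0558). Mock roots differed from 0 h roots in CCR2 by -0.74 (adjusted p = 0.0702). CCR2 signals were 351.2 and 494.0 in slr-1 at 0 h, against 1273.9 and 1547.0 in Col-0 at 0 h, a difference of -1.71 (adjusted p = 3.38e-04). The difference of response at 6 h was 1.09 for HCT (adjusted p = 0.00263) and 2.87 for CCR2 (adjusted p = 2.83e-05). LAC16 (AT5G58910), a laccase, rose in slr-1 by 2.86 at 2 h (adjusted p = 0.00265) and by 3.00 at 6 h (adjusted p = 0.00203), and its 0 h signals were 26.5 and 47.4 in slr-1, against 259.0 and 363.4 in Col-0.

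The genes whose course over the 7 group means was most like that of AT4G11190 were AT1G23710 (Pearson r 0.973), AT1G13670 (0.973), tny (AT5G25810, 0.97), AT1G06640 (0.968) and AT1G68430 (0.966), among 8085 compared probe sets annotated to a single gene. These correlations are a description over 7 points that come from 14 shared arrays. AT1G68430 passed the filter on low signals only through the mock arrays, where it is highest, so its place in this order is not evidence of likeness. Over the 14 single arrays 2 of these 5, tny and AT1G06640, stayed among the first 5, while AT1G68430 stood 796th (r 0.665). For tny, a transcription factor of the AP2/ERF family, the group means in signal were 3647 at 0 h, 2731 at 2 h and 2474 at 6 h in slr-1, and 3991 at 0 h, 2907 at 2 h and 883 at 6 h in Col-0, against 7984 in mock roots. Of the dirigent genes, AT4G13580 stood 10th in likeness (r 0.953) and AT2G39430 60th (r 0.906). The others were at 0.536 for AT4G11210, 0.242 for AT1G55210, -0.277 for AT2G21100, -0.332 for AT1G22900, -0.418 for AT1G58170 and -0.429 for AT3G13650.

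**Figure D5:**
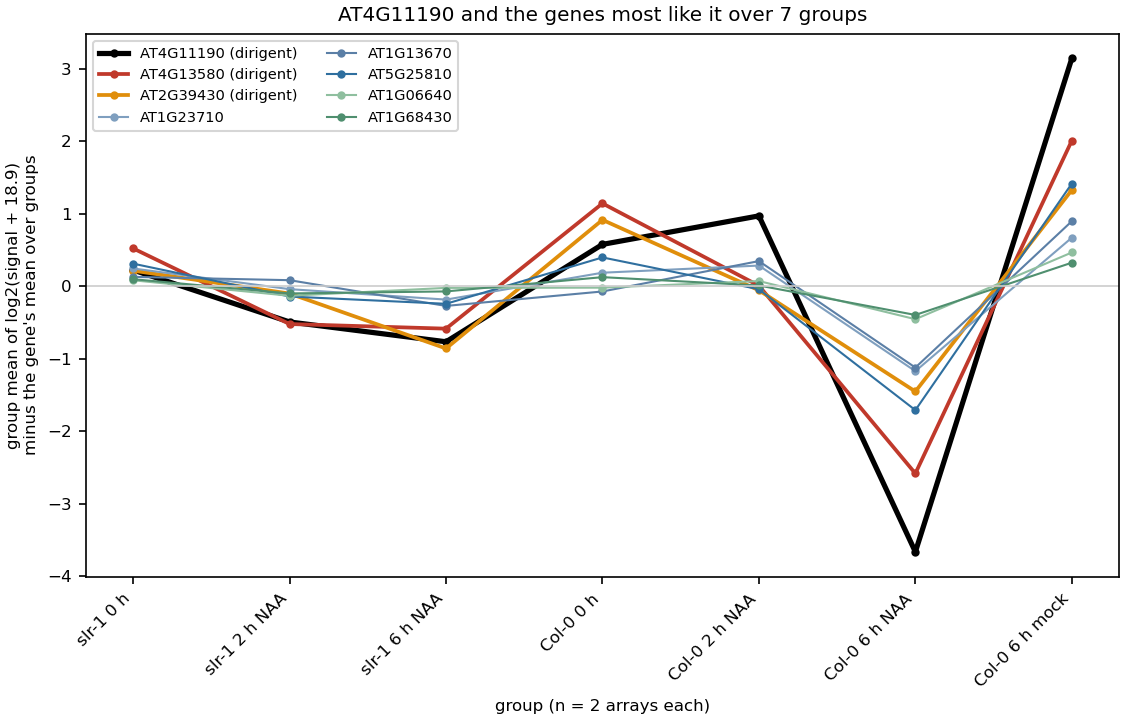
Group means of log2 signal, each minus the gene's own mean over the 7 groups, for AT4G11190, AT4G13580, AT2G39430 and the 5 genes most like AT4G11190. All the genes drawn are lowest in Col-0 at 6 h of NAA and highest in Col-0 mock, and AT4G11190 spans the widest range of them. The 5 genes were picked by likeness over these same 7 means, so their shared extremes follow from the choice. AT4G11190 was itself chosen by its level in Col-0 at 6 h of NAA, which bears on its range. AT1G68430 passed the filter on low signals only through the mock arrays.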

How the data were processed

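The deposited values are signal intensities of 22810 probe sets on 14 arrays, made by the authors with MAS5, per the submitters' processing notes, and treated as unlogged. No source used here gives the settings or the scaling target. The log2 values below were computed from the deposited intensities. After 64 controls were left out, probe sets were named through the platform annotation and updated by gene ID to the loci of TAIR10.1, with 13484 of 13513 probe sets of 1 gene matched. The genes of the list, the added lists and the rule for naming genes (the list, its neighbours, the 5 most alike genes over group means, and up to 4 called genes per pathway list) were chosen with earlier results of these data known.

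The pooled 10th percentile (18.9) was added to every signal before log2 was taken. Probe sets were tested where every array of at least 1 group exceeded the pooled 40th percentile (218.1). One mean per group was fitted with limma 3.58.1 in R 4.3.3 (moderated variances with trend, 7 residual and 6.57 prior degrees of freedom, Benjamini-Hochberg over 14882 probe sets), a procedure tested on simulated data. The number of arrays limits the precision, and the p-values measure the spread between 2 pooled samples per group, which the series describes as biological repeats. Alternatives were added values of 1 and 50, no filter, the 60th percentile as filter, quantile normalization, only the compared groups, a replicate block and leaving out each array. Deviations of same-numbered arrays from their group means correlated at -0.16 to 0.13 over 21 pairs of groups, so the numbers were not used as pairs. Promoter and protein sequences were not used here, and a search for promoter motifs was not run.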

Additional observations from a re-analysis of the deposited data

Results flagged for a closer look

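The response of AT1G55210 to 6 h of NAA differed between the genotypes by the test of the difference itself, by 1.38 on the log2 scale, slr-1 minus Col-0 (SE 0.26, limma adjusted p = 0.00149), with both slr-1 arrays higher at 6 h than at 0 h and both Col-0 arrays lower. The response of AT4G13580 at 6 h also differed by that test, by 2.62 (SE 0.67, adjusted p = 0.0108), with the 6 h arrays lower than the 0 h arrays in both genotypes.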

How the results depend on the processing

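Of 2437 tested values under the alternatives, 2325 kept their direction and their side of the threshold, 78 lost a call, 12 gained one and 22 changed sign, none of which was called. Genes outside the list entered these values only where the main fit called them, so they could lose a call and not gain one. The values also hold comparisons of AT4G11210, AT1G22900 and EXPA7 that are given above as a description. The count of changed genes of the list in mock against 0 h was 1 when only the compared groups were fitted, AT4G13580 at 0.87 (limma adjusted p = 0.0257). In that fit 453 of 14882 probe sets were called, against 756 in the main fit. In Col-0 at 2 h the count moved when single arrays were left out. These were Col-0 0 h replicate 1, either Col-0 2 h array or either Col-0 6 h NAA array. Single omissions also moved the count in slr-1 at 2 h and 6 h and in Col-0 at 6 h of NAA against mock. With the replicate block the counts of changed genes of the list were 2, 2, 3, 0, 2, 2, 3, 0, 0, 0 and 2 over the 11 comparisons. The added call was AT4G11190 in slr-1 at 6 h (-0.99, limma adjusted p = 0.038). The replicate numbers share no known pairing. Shares of all probe sets called with the block are not given here, so these counts are a description.

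Values that changed sign were all uncalled. AT4G11210 in Col-0 at 6 h against 0 h was -0.023 with 50 added. Leaving out single arrays gave AT4G11210 -0.66 to 0.82 in Col-0 at 2 h, -0.74 to 0.75 in Col-0 at 6 h, -0.19 to 0.045 between 2 h and 6 h in Col-0, -0.40 to 1.82 between 2 h and 6 h in slr-1 and -0.088 to 1.40 for slr-1 against Col-0 at 0 h. It gave AT4G11190 -0.18 to 0.96 in Col-0 at 2 h and -0.92 to 0.22 for slr-1 against Col-0 at 0 h. It gave AT1G58170 -0.20 to 0.30 for mock against 0 h, -0.17 to 0.44 for the response difference at 2 h and -0.47 to 0.15 between 2 h and 6 h in slr-1. It gave AT1G55210 -0.41 to 0.24 for the genotypes at 0 h and -0.14 to 0.049 between 2 h and 6 h in slr-1, and AT4G13580 -0.43 to 0.62 for the response difference at 2 h and -0.34 to 0.21 between 2 h and 6 h in slr-1. The cause was not tested. With 2 arrays per group, small changes and signals near 18.9 are the least certain. Over the 14 single arrays in place of the 7 group means, 2 of the 5 genes most like AT4G11190 were shared.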
